A study of Homo sapiens with 6 samples.

Results

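Transcripts of 10 cytokines and chemokines that are known targets of NF-kB were followed in MDA-MB-231 cells with and without knock-down of the receptor ROR1. The genes were fixed by name: the CXC chemokines CXCL8, CXCL1, CXCL2 and CXCL3, the IL-6 family cytokines IL6, IL11 and LIF, the interleukin-1 genes IL1A and IL1B, and the growth factor gene CSF2. All 10 were present among the 57445 genes of the table. MDA-MB-231, a widely used breast cancer cell line of the triple-negative type, was compared in 2 conditions, with 3 libraries each. The shCTL cells carried the pGIPZ control vector, a lentiviral vector that the labels describe as empty and the study as holding a non-silencing shRNA. The shRor1 cells carried the same vector with an shRNA (a short hairpin RNA that lowers an mRNA of matching sequence) against ROR1. Both were kept in RPMI-1640 medium with fetal bovine serum and selected for stable expression with puromycin, and no stimulus of NF-kB is named in the labels. The column headers of the shCTL libraries also contain the word DMSO, which neither the labels nor the shRor1 headers carry, and an effect of such a difference cannot be told apart from that of the shRNA. Only 1 shRNA against ROR1 was used, and nothing in the labels says whether the 3 libraries of a condition came from separate cultures, so p-values measure the spread between these libraries, which may be technical.

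NF-kB is a family of dimeric transcription factors that IkB proteins hold in the cytoplasm of resting cells. When the IkB kinase complex marks IkB for degradation, dimers such as RELA with NFKB1 enter the nucleus and bind kappa B sites in front of cytokine, chemokine and feedback genes. In triple-negative breast cancer cells, MDA-MB-231 included, the pathway is known to be partly active without an added stimulus, and interleukin-6 and interleukin-8 (the product of CXCL8) are known to be secreted by these cells and to promote their motility.

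Levels are given in TPM (transcripts per 1000000 transcripts of the library, corrected for transcript length), so that levels of different genes can be set side by side. The libraries carry no number in the table and are named the first, the second and the third by their position within a condition, which pairs no library of one condition with one of the other. Between 16036 and 17033 genes reached 1 TPM in a library. TPM keeps no sequencing depth, so the counting error behind a value is unknown. In bulk samples, fewer cells of a type and less RNA per cell cannot be told apart.

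ROR1, the targeted gene (ENSG00000185483.7, chromosome 1 from 64239688 to 64647181 on GRCh37), lay lower after the knock-down but with overlapping conditions. Its level was 15.42, 13.49 and 20.56 TPM in shCTL against 9.34, 11.93 and 14.85 TPM in shRor1, a mean of 73% of the control. The difference did not pass the test (log2 fold change -0.43, SE 0.20, adjusted p = 0.984 from limma, exact permutation p = 0.2, two-sided). The conditions therefore differ in ROR1 mRNA by less than 2-fold in the mean. The study also examined ROR1 protein by Western blot and reported lower RhoA levels and JNK phosphorylation in the knock-down cells. Protein is not measured by these values.

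The stretches of promoter that follow are shown because they hold the best known regulatory letters of these genes. They were taken from the RefSeq promoter table (GRCh38.p14) and cover 113 bases each, ending 26 bases before the RefSeq start of transcription in that table, 5′ to 3′ on the strand of the gene. The gene coordinates given with the levels come from GENCODE, which takes in further transcripts, so the stretch of IL6 lies inside the GENCODE span of the gene and those of CXCL8 and CXCL3 reach into it. Each was found at 1 place in GRCh37, namely chr4:74606148-74606260 on the plus strand for CXCL8, chr4:74734972-74735084 on the plus strand for CXCL1, chr4:74964938-74965050 on the minus strand for CXCL2, chr4:74904432-74904544 on the minus strand for CXCL3, chr7:22766681-22766793 on the plus strand for IL6 and chr19:55881857-55881969 on the minus strand for IL11. Capitals mark exact matches to the kappa B consensus GGGRNNYYCC (CXCL1, CXCL2, CXCL3 and IL6), to the AP-1 word TGANTCA (CXCL8 and IL11) and to the TATA word TATAAA (CXCL8). In these words R is A or G, Y is C or T and N is any base. The letters tggaatttcc of CXCL8 differ from the kappa B consensus in 1 base and were therefore left in small letters.
CXCL8: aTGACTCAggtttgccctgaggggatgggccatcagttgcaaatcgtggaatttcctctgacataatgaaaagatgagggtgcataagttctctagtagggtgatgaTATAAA
CXCL1: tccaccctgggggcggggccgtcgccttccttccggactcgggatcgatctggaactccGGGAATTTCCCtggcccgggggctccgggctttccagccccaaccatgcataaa
CXCL2: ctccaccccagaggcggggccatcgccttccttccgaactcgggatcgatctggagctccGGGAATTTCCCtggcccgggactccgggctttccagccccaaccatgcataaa
CXCL3: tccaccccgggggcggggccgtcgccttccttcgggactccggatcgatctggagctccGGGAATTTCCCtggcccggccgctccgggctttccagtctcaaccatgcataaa
IL6: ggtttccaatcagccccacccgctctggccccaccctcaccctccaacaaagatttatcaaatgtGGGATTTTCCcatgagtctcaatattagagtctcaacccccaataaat
IL11: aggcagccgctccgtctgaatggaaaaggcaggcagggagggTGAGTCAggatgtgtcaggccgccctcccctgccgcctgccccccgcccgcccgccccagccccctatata

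CXCL1, CXCL2 and CXCL3 carried the same marked letters, in which a match on the plus strand and one on the minus strand overlap, and these began 79 bases before the start in CXCL1 and CXCL3 and 78 bases before it in CXCL2. Along the printed stretch CXCL1 was 92.1% identical to CXCL2 and 92.9% to CXCL3, against 45.7% to CXCL8. The kappa B match of IL6 began 73 bases before its start. Over the whole windows of 300 bases (250 before and 50 after the start), searched on both strands, a kappa B match was present in 4 of the 9 genes with an entry and in 11.3% of 35116 promoters. TGANTCA was found in 3 of the 9 (IL1A, CXCL8 and IL11) and in 7.71% of all promoters, the C/EBP word TTGCNNAA in 3 (IL1B, CXCL2 and IL6) and in 10.5%, and TATAAA in 2 (IL1A and CXCL8) and in 11.5%. For IL1A, which has 2 listed starts, the first was used. LIF was not among the entries. These matches describe exact letters only, so a gene without a match may still hold a site that departs from the word, and CXCL8 is not shown to lack a kappa B site.

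These CXC chemokines attract neutrophils, mainly through the receptor CXCR2 and for CXCL8 also through CXCR1, and lie together on chromosome 4. CXCL8 (ENSG00000169429.6, 74606236 to 74609433) is the best known of them. Its level was 21.97, 19.98 and 10.61 TPM in shCTL and 28.58, 13.92 and 15.98 TPM in shRor1. The third shCTL library was the lowest and the first shRor1 library the highest, the conditions overlapped, and the largest value was 2.69 times the smallest. Means were 17.5 ± 6.07 TPM (SD, n = 3) and 19.5 ± 7.94 TPM (SD, n = 3), and the difference did not pass the test (log2 fold change 0.14, SE 0.32, adjusted p = 0.986 from limma).

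CXCL1 (ENSG00000163739.4, chromosome 4, 74735110 to 74737025), named GRO-alpha as a protein, measured 5.72, 4.91 and 3.30 TPM in shCTL and 5.01, 4.87 and 5.86 TPM in shRor1. Here the third shCTL library stood below the remaining 5, which lay close together. CXCL2 (ENSG00000081041.8, 74962757 to 74964913), its near copy, measured 5.31, 4.39 and 2.56 TPM in shCTL and 5.86, 3.58 and 2.73 TPM in shRor1. In both conditions the first library was the highest and the third the lowest, and the conditions covered nearly the same range. CXCL3 (ENSG00000163734.4, 74902306 to 74904524), the other paralog, measured 3.32, 3.95 and 1.28 TPM in shCTL and 3.10, 2.29 and 2.22 TPM in shRor1. Its shRor1 values all lay inside the range of shCTL, which the third shCTL library, the low one, made wide. None of the 3 passed the test, with log2 fold changes of 0.17 (SE 0.18) for CXCL1, -0.02 (SE 0.28) for CXCL2 and -0.06 (SE 0.29) for CXCL3 and adjusted p from 0.984 to 0.996 with limma.

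The transcripts of these paralogs resemble each other, with 83.4% identity between CXCL1 and CXCL2, 72% between CXCL2 and CXCL3 and 69.3% between CXCL1 and CXCL3 along the canonical transcripts, against 44.8% between CXCL1 and CXCL8. Reads of 50 bases, the length sequenced, would fit a second of these genes equally well at 5.33% of the positions of CXCL1, 10.1% of CXCL2 and 5.26% of CXCL3, so the division of reads among the 3 is uncertain to that extent. Because TPM is corrected for length, their sum depends on this division only through the different transcript lengths (1174, 1115 and 1075 bases). It was 14.35, 13.25 and 7.14 TPM in shCTL and 13.97, 10.74 and 10.81 TPM in shRor1, with the third shCTL library again the lowest. The log2 fold change of the sum was 0.07 (95% confidence interval -0.49 to 0.64, adjusted p = 0.987 from limma).

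**Figure D1:**
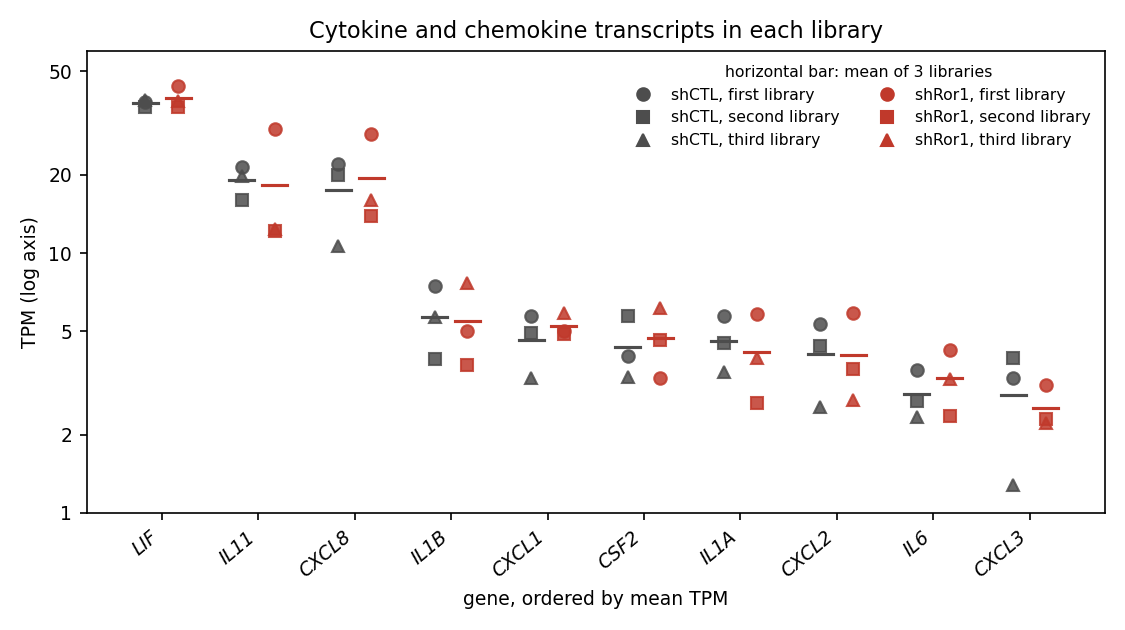
TPM (log axis) of the 10 genes in each of the 6 libraries, ordered by mean level, with shCTL in grey, shRor1 in red, 1 symbol shape per position within the condition and a bar at the mean of 3 libraries. In every gene the red and grey points overlap, LIF is the tightest at 36.36 to 43.76 TPM, and CXCL8 and IL11 are the 2 genes above 10 TPM whose libraries are far apart.

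IL6, IL11 and LIF encode cytokines that signal through the shared receptor chain gp130 (IL6ST) to JAK kinases and STAT3. IL6 (ENSG00000136244.7, chromosome 7, 22765503 to 22771621), the acute-phase cytokine, was expressed at a low level of 3.55, 2.70 and 2.35 TPM in shCTL and 4.24, 2.37 and 3.27 TPM in shRor1. The first library was the highest in each condition, and the lowest shRor1 value lay beside the lowest shCTL value. The log2 fold change was 0.14 (SE 0.20, adjusted p = 0.984 from limma). IL6 shares exonic positions with IL6-AS1 (mean 0.715 TPM) and STEAP1B (mean 0.105 TPM) on the opposite strand. The kit marks the strand of the RNA, but whether the counting used it is not given in the sources used here.

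IL11 (ENSG00000095752.2, chromosome 19, 55875750 to 55881831) encodes a cytokine known for its part in bone metastasis of breast cancer. Its mean level was close to that of CXCL8. Its level was 21.40, 16.05 and 19.83 TPM in shCTL and 30.12, 12.12 and 12.36 TPM in shRor1. The shRor1 libraries did not form 1 group, since the first was the highest of all 6 and the other two the lowest of all 6. The SD was accordingly 10.3 TPM in shRor1 against 2.75 TPM in shCTL, around means of 18.2 and 19.1 TPM (n = 3 each). With all libraries the log2 fold change was -0.18 (SE 0.32, adjusted p = 0.986 from limma, exact permutation p = 1.0, two-sided). Without the first shRor1 library it was -0.592 with an unadjusted p of 0.00448, but with an adjusted p of 0.44 from limma, so IL11 was not called there either. In that setting 1720 of the 16554 genes tested had an unadjusted p below 0.05 in limma, against 472 with all libraries. Of the positions of the IL11 transcript, 1.76% were shared over 50 bases with other genes.

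LIF (ENSG00000128342.4, chromosome 22, 30636442 to 30642748), leukaemia inhibitory factor, was the most abundant and the most even of the 10. Its level was 37.99, 36.36 and 38.89 TPM in shCTL and 43.76, 36.51 and 38.47 TPM in shRor1. The shRor1 range enclosed most of the shCTL range, and only the first shRor1 library stood above it. The largest value was 1.2 times the smallest. The log2 fold change was 0.06 (SE 0.09, adjusted p = 0.984 from limma), with a 95% confidence interval of -0.14 to 0.27, or 0.91 to 1.21 as a ratio of TPM + 1, and so it is the 1 gene of the 10 for which a change beyond 1.5-fold lies outside the interval. LIF shares exonic positions with the antisense genes LIF-AS1 (mean 0.41 TPM) and LIF-AS2 (mean 1.07 TPM).

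IL1A and IL1B lie beside each other on chromosome 2 and encode the agonists of the interleukin-1 receptor, which itself activates NF-kB. IL1A (ENSG00000115008.5, 113531502 to 113542070) gave 5.72, 4.52 and 3.48 TPM in shCTL and 5.85, 2.65 and 3.94 TPM in shRor1. Both first libraries were near the same level, above the other four. IL1B (ENSG00000125538.7, 113587328 to 113594393) gave 7.48, 3.90 and 5.67 TPM in shCTL and 5.02, 3.71 and 7.67 TPM in shRor1. Its second library was the lowest in each condition, while the highest was the first in shCTL and the third in shRor1, so the neighbouring genes did not follow the same order. The log2 fold changes were -0.14 (SE 0.25, adjusted p = 0.986) for IL1A and -0.06 (SE 0.27, adjusted p = 0.992) for IL1B, both from limma.

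CSF2 (ENSG00000164400.4, chromosome 5, 131409482 to 131411863) encodes GM-CSF, which acts on granulocytes and macrophages. Its level was 4.01, 5.71 and 3.34 TPM in shCTL and 3.32, 4.63 and 6.15 TPM in shRor1. The first shRor1 library, highest for most of the other genes, was the lowest of all 6 for CSF2. The log2 fold change was 0.08 (SE 0.23, adjusted p = 0.987 from limma).

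Taken over both conditions, the order of the mean levels was LIF (38.66 TPM), IL11 (18.65), CXCL8 (18.51), IL1B (5.58), CXCL1 (4.94), CSF2 (4.53), IL1A (4.36), CXCL2 (4.07), IL6 (3.08) and CXCL3 (2.69). LIF exceeded IL11 in 6 of 6 libraries, and CXCL8 exceeded IL1B in 6 of 6, in each case without overlap of the ranges. Every other pair of neighbours overlapped. IL11 exceeded CXCL8 in only 2 of 6 libraries, and the order among the 7 genes below 10 TPM held in 3 to 5 of 6 libraries per pair.

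All 10 genes passed the filter of at least 1 TPM in at least 3 libraries, as did 16554 of the 57445 genes in all. Of the 10, 0 passed an adjusted p of 0.05 in limma, as did 0% of the 16554 genes tested, among which the adjusted p did not go below 0.369. The study, which fitted a count model, reported AGR2 and a gene of an uncharacterized protein as differing between the conditions. Unadjusted, 0 of the 10 had a p below 0.05 in limma, against 2.85% of all genes tested (472). The lowest p among the 10 was 0.382, for CXCL1. The conditions were free of overlap for 0 of the 10 and for 7.78% of all genes tested (1288). The lowest exact permutation p among the 10 was 0.5, where 3 libraries against 3 cannot go below 0.1. The log2 fold changes were above 0 for 5 genes (IL6, CXCL8, CXCL1, LIF and CSF2) and below 0 for 5 (CXCL2, CXCL3, IL1A, IL1B and IL11), with a median of 0.02 and a range from -0.18 to 0.17, but CSF2 turned to -0.022 and the median to -0.061 after quantile normalization. Over all genes tested the median was 0.05, and 11093 of 16554 lay above 0, or 8352 after quantile normalization. Without regard to sign, the median was 0.11 for the 10 genes and 0.09 for all genes.

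The precision differed from gene to gene. All 10 confidence intervals lay within a 2-fold change of TPM + 1 in either direction. The widest was that of CXCL8, from -0.62 to 0.90 on the log2 scale, or 0.65 to 1.86 as a ratio, followed by IL11, from 0.53 to 1.48 as a ratio. Because 1 TPM is added before the logarithm, these intervals understate changes in TPM for the genes at a few TPM. A decrease of the size of that of ROR1 (log2 fold change -0.43) lies inside the interval for 7 of the 10 genes, all but IL6, CXCL1 and LIF. An increase of that size lies inside the intervals of IL6 and CXCL1 but outside that of LIF.

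**Figure D2:**
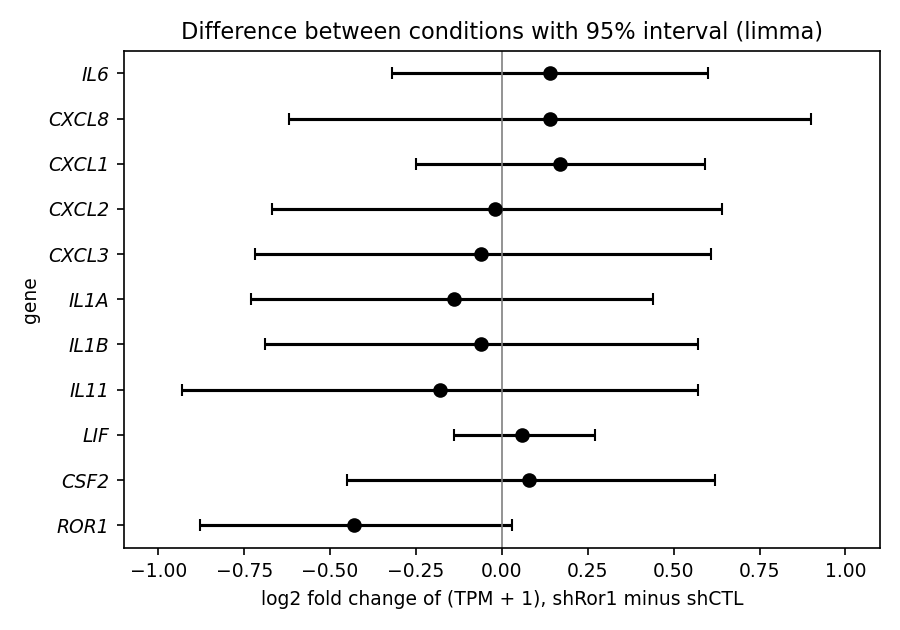
Log2 fold change of TPM + 1, shRor1 minus shCTL, for the 10 genes and for ROR1, with points at the limma estimate and bars for the 95% confidence interval from 3 libraries per condition. All 10 intervals of the cytokine and chemokine genes contain 0, that of LIF is the narrowest, and that of ROR1 runs from -0.88 to 0.03.

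The genes varied between libraries of the same condition more than most genes of similar level. This spread was measured as the residual SD of log2(TPM + 1) within conditions. Its median was 0.40 for the 10 genes and 0.15 for all genes tested, and it was 0.37 for the 5 other known targets of NF-kB that were tested. It was only 0.17 for the 8 inhibitors and feedback genes, many of them also targets of NF-kB, and 0.33 for the 3 fibroblast markers tested. A high spread was thus neither shared by all targets nor limited to them. Among the 8648 genes whose mean TPM fell between those of CXCL3 and LIF, the median was 0.16 and the 90th percentile 0.35, and 9 of the 10 genes lay above the median and 6 above the 90th percentile. CXCL8 (0.53) exceeded 96.9% of these genes, IL11 (0.52) 96.8%, CXCL3 (0.44) 94.9%, CXCL2 (0.44) 94.7%, IL1B (0.42) 94.0% and IL1A (0.38) 92.3%. CSF2 (0.34), IL6 (0.28) and CXCL1 (0.25) exceeded 89.4%, 82.6% and 78.3%. The exception was LIF (0.10), which exceeded 21.1%. These shares are a description without a test, and with TPM alone the part of counting error in them was not tested. The range of levels is wide, and the spread falls with level. In narrower bands of level the 90th percentile was 0.436 for CXCL2 and IL1A, 0.439 for CXCL3 and 0.408 for IL1B. It was 0.301 for CXCL8 and IL11. Against these bands CXCL8 and IL11 lay clearly above the 90th percentile, CXCL2, CXCL3 and IL1B close to it and IL1A below it.

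**Figure D3:**
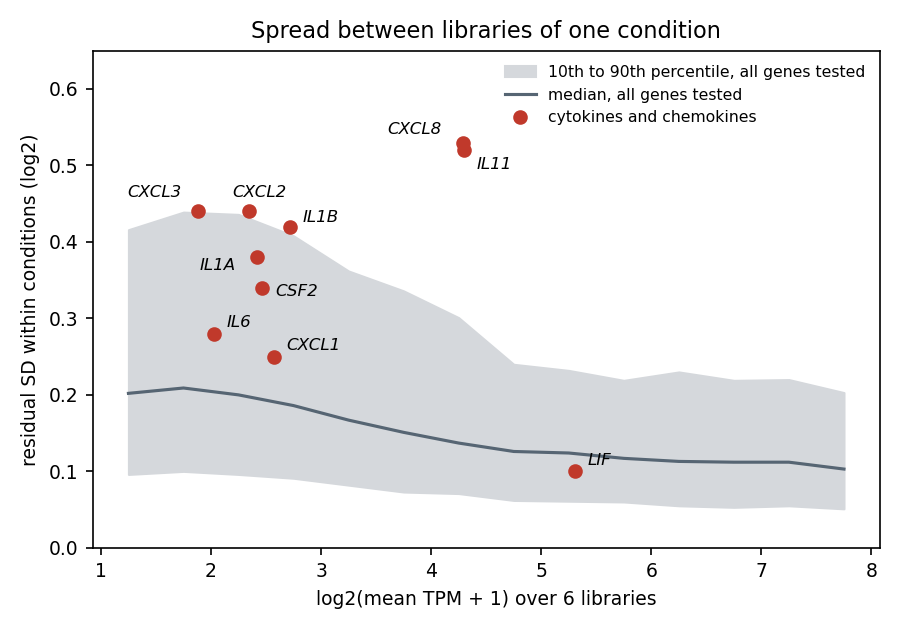
Residual SD of log2(TPM + 1) within conditions against the log2 of the mean TPM + 1 over 6 libraries, with the 10 genes in red, the median of all genes tested as a line and their 10th to 90th percentile as a grey band. CXCL8 (0.53) and IL11 (0.52) lie far above the band, 7 genes lie between the median line and just above the band, and LIF (0.10) lies below the median line.

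Part of this spread ran the same way in several genes. The 10 levels summed to 116.5, 102.5 and 91.3 TPM in the shCTL libraries and to 134.9, 86.6 and 98.6 TPM in the shRor1 libraries, with the first library highest in each condition. The first library was the highest of its condition for 7 of the 10 genes in shCTL and for 7 of the 10 in shRor1. The lowest was the third library for 7 genes in shCTL and the second library for 7 genes in shRor1. For 5 genes (IL6, CXCL8, CXCL2, IL1A and IL11) the first library was the highest in both conditions, and for these 5 the 2 first libraries were also the highest 2 of all 6. Over all genes tested, 13.6% (2244 of 16554) had the first library highest in both conditions. Shares over all genes were not computed for a single condition, nor for the 2 first libraries as the highest 2 of all 6. This pattern was noticed in the same libraries in which it is counted, and it carries no test.

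Correlations of log2(TPM + 1) over the 6 libraries give the same description pair by pair, with points that share library and scaling. Of the 45 pairs, 33 had a correlation above 0, with a median of 0.45, and the share over pairs of all genes was not computed. The closest were CXCL8 with CXCL2 (Pearson r = 0.91), IL6 with CXCL8 (0.87) and IL6 with IL1A (0.86). CSF2 ran against several others, at -0.79 with IL11 and -0.62 with LIF.

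**Figure D4:**
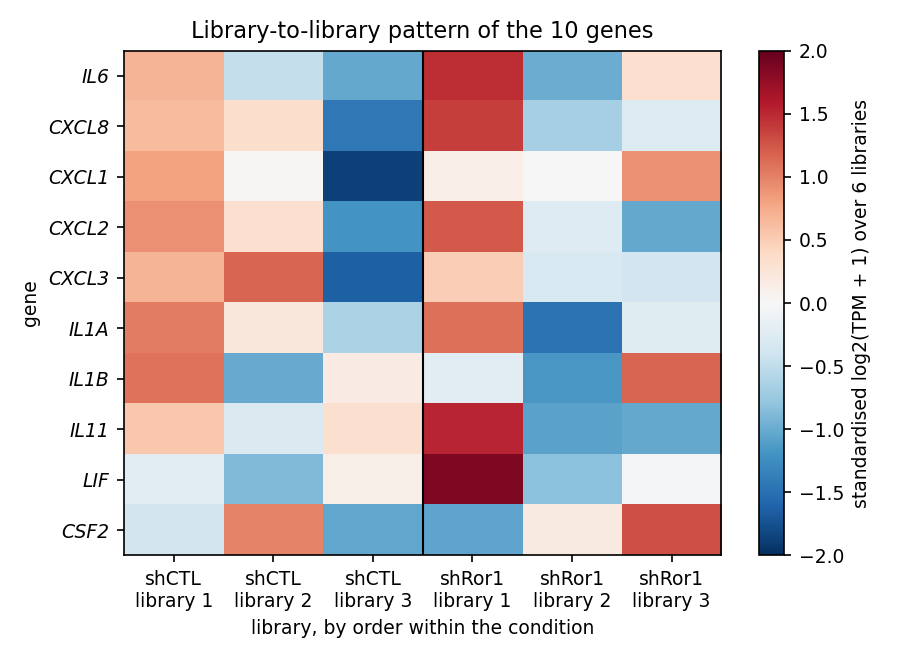
Standardised log2(TPM + 1) of the 10 genes (rows) in the 6 libraries (columns, shCTL left of the line and shRor1 right of it), with red above and blue below the mean of the gene over 6 libraries. The first column of each condition is mostly red, and the third of shCTL and the second of shRor1 are mostly blue, for 7 of the 10 genes the lowest of their condition. CSF2 shows another order.

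Among the 11140 genes with a mean of at least 5 TPM, 32 followed the mean standardised level of the 10 with a Pearson r above 0.9 over the 6 libraries. The 3 closest were DOCK4, which encodes an activator of the GTPase Rac (r = 0.958), PLAA, which encodes a phospholipase A2 activating protein (r = 0.954), and ARHGEF2, which encodes an activator of RhoA (r = 0.953). DOCK4 read 10.83, 9.46 and 8.19 TPM in shCTL and 11.52, 8.15 and 10.69 TPM in shRor1. Its first libraries were the highest of each condition, as for the 5 genes above. With 6 points and this many genes compared, such values describe a likeness of order and nothing further.

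Of the 5 NF-kB subunit genes tested, 0 passed an adjusted p of 0.05 in limma and 0 had an unadjusted p below 0.05. Their log2 fold changes had a median of 0.04. NFKB2, which encodes the p52 precursor, was the most abundant at 54.59, 57.12 and 50.94 TPM in shCTL and 62.00, 55.85 and 59.33 TPM in shRor1. RELA, the transactivating subunit p65, was at 54.74, 50.04 and 57.67 TPM and at 57.04, 50.98 and 53.84 TPM. REL, which encodes c-Rel, had the largest difference of the 5, 0.24 (SE 0.13, adjusted p = 0.984 from limma), with overlapping conditions. For 0 of the 5 was the first library highest in both conditions.

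Inhibitors and feedback genes, many of them targets of NF-kB themselves, numbered 8. Of these, 0 passed an adjusted p of 0.05 in limma and 0 an unadjusted p of 0.05, and the median log2 fold change was 0.10, against 0.05 for all genes. NFKBIA, the IkB protein that is resynthesised after activation, was at 48.99, 53.14 and 44.03 TPM in shCTL and 54.46, 56.03 and 57.11 TPM in shRor1. All shRor1 values lay above all shCTL values (log2 fold change 0.20, SE 0.09, adjusted p = 0.984 from limma). TNIP1, which encodes a partner of the deubiquitinating protein A20, was likewise without overlap, at 88.82, 87.34 and 86.39 TPM against 95.36, 89.99 and 94.29 TPM, with a log2 fold change of 0.09 (adjusted p = 0.984 from limma). These 2 of 8 are to be read beside the 7.78% of all genes without overlap. BCL3 (0.27) and NFKBIB (-0.21) had the largest differences, in opposite directions and with overlap. For 1 of the 8, TNIP1, the first library was highest in both conditions, and for BCL3 it was the lowest in both.

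Of the 14 listed kinases and adaptors upstream of NF-kB, 13 were matched and tested, and IKBKG was not analysed here. None passed an adjusted p of 0.05 in limma, 0 an unadjusted p of 0.05, and 0 were free of overlap, with a median log2 fold change of 0.04. The most abundant were IRAK1, a kinase of the interleukin-1 pathway (mean 180.5 TPM, log2 fold change -0.05), and BIRC2, the ubiquitin ligase cIAP1 (mean 54.59 TPM, 0.13). MAP3K7, the kinase TAK1, had the largest difference at 0.17 (SE 0.12, adjusted p = 0.984 from limma). For 3 of the 13 (MAP3K14, TRAF2 and BIRC2) the first library was highest in both conditions, beside 13.6% of all genes tested.

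Receptors of these cytokines were unevenly present. Of 12 receptor and antagonist genes, 7 passed the filter, and 0 passed an adjusted p of 0.05 in limma. IL6ST, the shared chain of the IL-6 family, was the most abundant at 56.62, 62.07 and 58.89 TPM in shCTL and 62.08, 69.48 and 68.65 TPM in shRor1. Its conditions touched without overlapping, with a log2 fold change of 0.17 (SE 0.08, adjusted p = 0.984 from limma). IL11RA, the receptor chain specific to interleukin-11, was at 2.67, 3.13 and 3.86 TPM in shCTL and 3.82, 4.52 and 5.37 TPM in shRor1, with overlap, and was the 1 receptor gene with an unadjusted p below 0.05 (0.0392, log2 fold change 0.40, adjusted p = 0.984 from limma). This 1 of 7 stands beside 2.85% of all genes tested, and the 1 of 7 free of overlap, IL6ST, beside 7.78%. The first library was highest in both conditions for 0 of the 12 receptor and antagonist genes. CSF2RA, a pseudoautosomal gene whose reads may be divided between its copies, had a mean of 16.48 TPM, while CSF2RB, the chain that it needs for signalling, did not exceed 0.10 TPM. The chemokine receptor CXCR1 did not exceed 0.01 TPM and CXCR2 lay between 0.08 and 0.17 TPM, so both were under the filter in every library. IL1R1, the signalling receptor of interleukin-1, had a mean of 2.612 TPM and a log2 fold change of 0.24 (adjusted p = 0.984 from limma), and the antagonist IL1RN did not exceed 0.04 TPM.

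Of 17 other known targets of NF-kB, 15 were matched, and CCL5 and SOD2 were not analysed here. Only 5 passed the filter (CSF1, BIRC3, IL32, ICAM1 and TRAF1), and 0 of these passed an adjusted p of 0.05 in limma or an unadjusted one. Their log2 fold changes ranged from 0.05 to 0.29. The largest was that of BIRC3, which encodes the ubiquitin ligase cIAP2 (0.29, SE 0.24), at 18.40, 12.55 and 9.28 TPM in shCTL and 19.78, 15.13 and 13.72 TPM in shRor1. CSF1, the macrophage growth factor, was the most abundant, with a mean of 27.01 TPM. TNF did not exceed 0.08 TPM and CXCL6 is listed at 0 in all 6 libraries. The first library was highest in both conditions for BIRC3 and TRAF1, which makes 2 of the 5 genes tested, beside 13.6% of all genes tested. CSF3, IL24 and PTGS2, under the filter and outside that share, had the same order. In CSF1 and ICAM1, both tested, the first library was instead the lowest in both conditions. ICAM1 was at 7.02, 7.82 and 11.2 TPM in shCTL and 6.49, 7.08 and 15.39 TPM in shRor1. PTGS2, the gene of cyclooxygenase-2, which is described here after its values were seen, was at 2.30, 0.68 and 0.62 TPM in shCTL and 4.48, 0.36 and 0.75 TPM in shRor1. In both conditions its first library stood far above the others.

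Downstream of the gp130 cytokines, 0 of 6 genes of the JAK-STAT3 axis passed an adjusted p of 0.05 in limma or an unadjusted one, and the median log2 fold change was 0.05. STAT3 had a mean of 79.49 TPM (log2 fold change 0.02), TYK2 63.47 TPM (0.04) and PIM1, a target of STAT3, 20.73 TPM (0.06). JAK2 had the largest difference, 0.23 (SE 0.14, adjusted p = 0.984 from limma). The first library was highest in both conditions for 0 of the 6. It was so for CD44, 1 of the 7 markers of MDA-MB-231 cells. After quantile normalization, which brought the median of all genes to 0.00, the list medians were -0.033 for the subunits, 0.059 for the inhibitors, -0.010 for the kinases, 0.057 for the receptors, -0.006 for the other targets and 0.005 for the JAK-STAT3 genes, so that the sign of 3 of them turned.

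**Figure D5:**
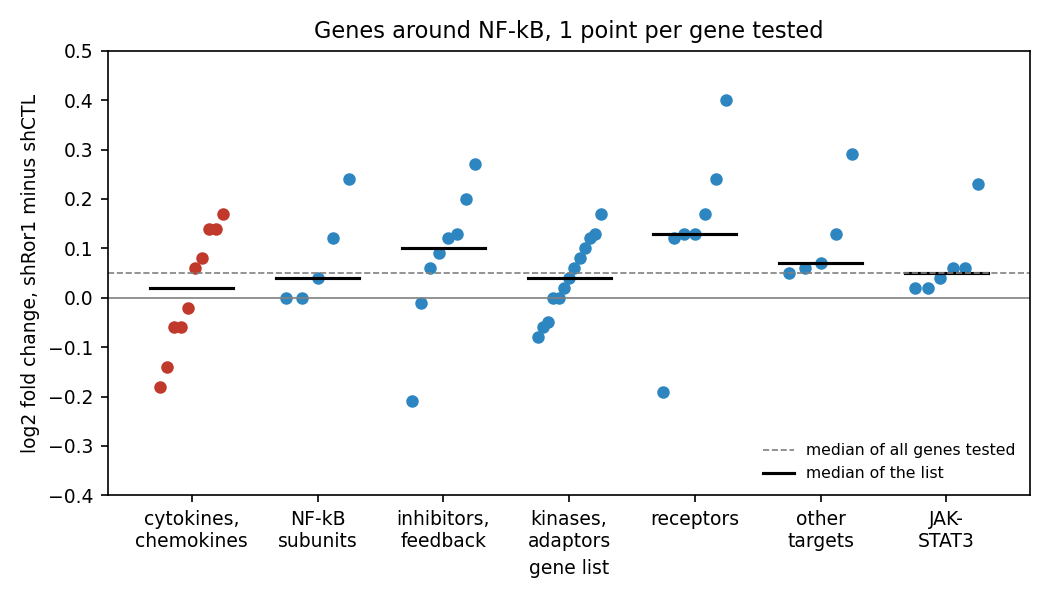
Log2 fold change, shRor1 minus shCTL, of the genes tested in the list of 10 (red) and in 6 lists around NF-kB (blue), 1 point per gene, with a bar at the median of each list and a dashed line at the median of all genes tested (0.05). The 10 cytokine and chemokine genes lie evenly on both sides of 0, between -0.18 and 0.17, and no point in any list passed an adjusted p of 0.05.

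The identity of the cells was checked with markers. All 7 markers of MDA-MB-231 cells were expressed, with a mean of 2629 TPM for VIM, the mesenchymal filament vimentin, and 505.6 TPM for KRT8, and with a median log2 fold change of -0.02. ESR1 and PGR, the hormone receptor genes, did not exceed 0.21 and 0.01 TPM. GATA3 (3.83 to 4.69 TPM) and FOXA1 (3.72 to 5.45 TPM), which are luminal regulators and were listed as markers expected near 0, were above 1 TPM in every library. CDH1, E-cadherin, was at 1.01, 0.80 and 1.22 TPM in shCTL and 1.36, 1.41 and 1.47 TPM in shRor1, without overlap (log2 fold change 0.27, adjusted p = 0.984 from limma). Leukocytes are the other main source of many of these cytokines. None of the 7 leukocyte markers passed the filter, their sum ranged from 1.30 to 1.51 TPM in shCTL and from 0.83 to 1.68 TPM in shRor1, and its part in the cytokine and chemokine levels was not tested. CD14 and CSF1R did not exceed 0.54 and 0.55 TPM. Of 5 fibroblast markers, 3 passed the filter, their sum ranged from 10.52 to 17.83 TPM in shCTL and from 10.37 to 15.76 TPM in shRor1 with COL1A1 (7.25 to 13.87 TPM) as its main part, and LUM is listed at 0. The fibroblast sum was highest in the third library of each condition, in neither of which the 10 levels summed highest, and its part in the levels was not tested.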

How the data were processed

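RNA of 3 shCTL and 3 shRor1 libraries of MDA-MB-231 cells was sequenced with a strand-specific kit as single reads of 50 bases. The labels call the molecule polyA RNA, while the methods start from total RNA. According to the methods and processing notes, the authors mapped reads to GRCh37 (Ensembl 73 genes) with STAR and estimated gene abundance with RSEM 1.2.5. The deposited values are TPM per gene and library, with each column summing to 1000000 within rounding. They carry no depth, so the count model planned for counts could not be used. The 6 value columns carry 1 header per condition without a replicate number, and 0 value columns were left unused.

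Genes that reached 1 TPM in 3 or more libraries entered the fit, and log2(TPM + 1) was modelled with limma 3.58.1 (R 4.3.3) with condition as the only term and a mean-variance trend. P-values were adjusted over all genes tested following Benjamini and Hochberg, with a threshold of 0.05. Log2 fold changes refer to TPM + 1, which understates changes of low genes. Single genes were also compared by exact two-sided permutation of mean TPM. The fit was also run on simulated data, with changes larger than those of the cytokine and chemokine genes or of ROR1. It therefore does not show how well changes of their size are found.

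The members and the gene lists were chosen with earlier results of these data known. From each list the text names the 2 genes with the highest mean TPM and the 2 with the largest absolute log2 fold change, besides the 10 genes, ROR1 and the 3 genes closest in pattern. Others are named as list members, as overlapping genes or, where stated, after their values were seen. Symbols were matched for 55022 of 57445 identifiers, with coordinates from GENCODE 44 on GRCh37. Alternatives were a pseudocount of 0.1, no filter, quantile normalization, median ratio scaling, no trend, each library left out, the sum of CXCL1, CXCL2 and CXCL3 and, chosen after seeing the data, the first library of each condition left out.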

Additional observations from a re-analysis of the deposited data

How the results depend on the processing

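Of the 10 genes, 0 passed an adjusted p of 0.05 in limma under each of the 13 alternatives, and the same held for the pathway lists. The lowest adjusted p of the 10 was 0.44. At an unadjusted p below 0.05 the count was 0 with all libraries, 0 to 1 when single libraries were omitted, and 1 without the first library of each condition, an alternative chosen after seeing the data. The 1 gene was IL11, at -0.592 (adjusted p = 0.44 from limma) without the first shRor1 library and at -0.509 (adjusted p = 0.91 from limma) without both first libraries. Such genes were also more frequent among all 16554 tested. They numbered 1720 without the first shRor1 library and 826 without both first libraries, against 472 with all libraries. Of 123 recomputed log2 fold changes of the 10 genes, 98 kept their direction and 25 turned it, so that 0 of the 10 held 1 direction throughout, and the values ran from -0.592 to 0.336. When single libraries were omitted, the log2 fold changes ranged from -0.016 to 0.303 for IL6, -0.166 to 0.336 for CXCL8, -0.016 to 0.306 for CXCL1, -0.259 to 0.180 for CXCL2, -0.396 to 0.164 for CXCL3, -0.373 to 0.081 for IL1A, -0.292 to 0.148 for IL1B, -0.592 to 0.031 for IL11, -0.010 to 0.118 for LIF and -0.094 to 0.269 for CSF2. Other turns of direction were 0.074 for the sum that replaces CXCL2 and CXCL3, 0.161 for IL1B and -0.005 for LIF without the first library of each condition, and -0.022 for CSF2 after quantile normalization. The cause was not tested. The median of the 10 ran from -0.103 to 0.1, and ROR1 stayed lower in shRor1 at -0.577 to -0.264. Quantile normalization and median ratio scaling moved the median of all genes from 0.05 to 0.00. Over all genes, 1 passed the adjusted threshold without the third shRor1 library and 0 otherwise. No paired analysis was possible because headers within a condition were identical and unnumbered. TPM holds no counts, so DESeq2 and edgeR were not run, and the share of counting error in the spread at a few TPM was not computed.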
